A study of Homo sapiens with 6 samples.

Results

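DNaseI cuts DNA where nucleosomes have been moved aside, so a cluster of cuts marks an open region. Promoters and enhancers held open by transcription factors are the usual places. Open regions at promoters are mostly rich in G+C, lie near the start of expressed genes and are shared by many cell types, whereas open regions far from promoters are more often particular to a cell type, and in epithelial cancer lines many of them hold the letters bound by AP-1, the FOS and JUN dimer. Gemcitabine is a deoxycytidine analogue that is built into DNA and inhibits ribonucleotide reductase, and PANC1 is an established human pancreatic ductal carcinoma line.

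The vehicle-only open regions were the peaks listed for vehicle-treated PANC1 cells that shared no base (0 bp) with any peak of the gemcitabine-treated cells. They were 4059 of the 9605 vehicle peaks on the nuclear chromosomes, or 42.3% (95% interval 41.3 to 43.3, Wilson, covering counting error only). The members were thus chosen by the measured peak calls of both libraries, and neither the absence of a gemcitabine peak nor their scores is a finding. Of these regions 959 lay within 1 kb of the hg19 start of a Gencode protein-coding transcript, measured from the edge of the peak, and 3100 lay farther away. For comparison, 5546 vehicle peaks were shared with the gemcitabine list, and 5152 of the 10695 gemcitabine peaks were gemcitabine-only.

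In the study, cells of this one line were grown for 24 h and then given 50 nM gemcitabine or the vehicle, 0.1% DMSO. RNA-seq was done after 48 h on 2 libraries per condition, described as biological replicates, and DNaseI-seq on 1 library per condition, given as the same conditions without restating the time. With 1 DNaseI library per condition there was no replicate check of any region, and no test was run on peaks. The number of DNaseI reads is unknown because the lists give peaks only, so a region missing from the gemcitabine list was below its calling threshold at that depth and is not shown to be closed. RNA was the only readout independent of the choice of regions. The RNA libraries held 13194535 to 15766232 assigned fragments. The PANC1 label held against most of its markers, with keratin 8 at 471 to 650 FPKM (fragments scaled to transcript length and library size) in the 4 libraries. Keratin 18 was at 336 to 472 FPKM, vimentin at 385 to 476 and MUC1 at 105 to 209. The markers keratin 19, at 3.05 to 6.91 FPKM, and SOX9, at 3.13 to 3.90 FPKM, were low. Of 9 markers of other cell types, CD3E, PRSS1, INS, GCG and ALB, which mark T cells, acinar, islet and liver cells, had 0 fragments in all 4 libraries, where 3 fragments correspond to 0.190 to 0.227 CPM (fragments scaled to library size). CDH5 (endothelial) and CPA1 (acinar) had at most 3 fragments in a library, and PTPRC, the CD45 of leukocytes, 2 to 9. PECAM1, a further endothelial marker that had been chosen, was not found by that name among the measured genes. CD68, a macrophage marker, was present, with 133 and 154 fragments with vehicle and 238 and 269 with gemcitabine (10.7 to 24.6 FPKM), 0.94 ± 0.13 on the log2 scale (edgeR adjusted p = 6.53e-05). The 9 markers summed to 137 and 159 fragments with vehicle and 247 and 277 with gemcitabine, and their part in the RNA results was not tested.

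The sequences below are windows of 150 bp around the midpoint of single vehicle-only regions, read from the plus strand of the GRCh37 reference, which has the hg19 chromosomes. The first set holds the 3 regions at starts with the highest scores, at AKT2 (a serine/threonine kinase of growth factor signalling, chr19:40791216-40791365), ALOXE3 (an epidermal lipoxygenase, chr17:8023216-8023365) and C6orf226 (chr6:42858236-42858385). Capitals mark the SP/KLF letters GGGCGG or their complement CCGCCC at AKT2 and the NF-Y letters CCAAT at ALOXE3.
AKT2: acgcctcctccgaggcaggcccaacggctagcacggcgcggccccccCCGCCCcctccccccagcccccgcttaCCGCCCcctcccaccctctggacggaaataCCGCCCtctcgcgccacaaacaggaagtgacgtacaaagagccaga
ALOXE3: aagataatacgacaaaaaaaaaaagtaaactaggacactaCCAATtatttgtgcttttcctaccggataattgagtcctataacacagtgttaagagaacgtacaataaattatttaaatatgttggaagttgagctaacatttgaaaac
C6orf226: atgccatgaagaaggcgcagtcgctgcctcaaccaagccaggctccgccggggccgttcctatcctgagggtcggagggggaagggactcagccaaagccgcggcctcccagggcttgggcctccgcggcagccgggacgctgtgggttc

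The AKT2 and C6orf226 windows were 70.7% and 69.3% G+C and the ALOXE3 window 29.3%. The second set shows the farther regions ranked 2 and 3 by score, 197 kb from ALG10 (chr12:34372577-34372726) and inside an intron of KCNJ15 (chr21:39649642-39649791). Neither window has capitals, since none of the motif letters searched lay in them.
ALG10: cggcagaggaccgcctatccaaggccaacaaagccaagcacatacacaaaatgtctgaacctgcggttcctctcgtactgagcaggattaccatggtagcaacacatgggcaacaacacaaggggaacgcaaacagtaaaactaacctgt
KCNJ15: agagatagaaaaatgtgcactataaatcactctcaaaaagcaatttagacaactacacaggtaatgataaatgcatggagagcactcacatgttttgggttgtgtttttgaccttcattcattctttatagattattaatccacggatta

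These windows held 50% and 32.7% G+C. The third set shows the highest-scoring regions whose window holds the AP-1 letters TGANTCA, where N was any base. One lies in an intron of FMN1 (chr15:33142446-33142595) and holds TGATTCA. The other lies 33.9 kb from DKK3 (chr11:12065745-12065894) and holds TGAGTCA.
FMN1: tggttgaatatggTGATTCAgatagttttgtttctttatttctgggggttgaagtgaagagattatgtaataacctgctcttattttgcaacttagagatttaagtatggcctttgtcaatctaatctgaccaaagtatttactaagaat
DKK3: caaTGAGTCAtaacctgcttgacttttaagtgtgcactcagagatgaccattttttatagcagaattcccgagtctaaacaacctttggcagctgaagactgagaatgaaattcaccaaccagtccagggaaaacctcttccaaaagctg

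The last set shows the highest-scoring regions whose window holds the CTCF letters (CC, any 3 bases, then AGGNGGC), both at starts, those of NF2 (chr22:29999364-29999513), which encodes the tumour suppressor merlin, and NCOA4 (chr10:51565076-51565225), the ferritin autophagy receptor. Capitals also mark NF-Y and SP/KLF letters at NF2 and the NRF1 letters GCGCNTGCG at NCOA4.
NF2: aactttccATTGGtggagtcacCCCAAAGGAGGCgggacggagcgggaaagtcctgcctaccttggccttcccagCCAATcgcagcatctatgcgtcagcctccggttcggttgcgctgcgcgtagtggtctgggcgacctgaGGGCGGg
NCOA4: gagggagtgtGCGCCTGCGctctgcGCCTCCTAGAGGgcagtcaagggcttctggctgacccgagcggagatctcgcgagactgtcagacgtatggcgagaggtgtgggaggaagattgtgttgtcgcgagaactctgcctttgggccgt

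Vehicle-only regions lay at gene starts less often than shared ones. At starts were 23.6% of the vehicle-only regions (95% interval 22.3 to 25), against 45.2% of shared vehicle regions (43.9 to 46.5) and 30.2% of gemcitabine-only regions (28.9 to 31.5), and these intervals did not overlap. Put the other way, 27.7% of the vehicle peaks at starts (26.2 to 29.2) and 50.5% of those farther away (49.2 to 51.7) had no overlapping gemcitabine peak. Of the 959 regions at starts, 814 held a start within the peak itself. Among the farther regions, 42.5% had their midpoint in an intron of a protein-coding gene, 55.1% between genes and 2.35% in an exon, close to the 43.4%, 54.4% and 2.17% of shared regions. The farther vehicle-only regions were more often remote, with 46.4% over 50 kb from any protein-coding start (44.7 to 48.2), against 41.0% of shared (39.2 to 42.7) and 37.1% of gemcitabine-only regions (35.6 to 38.7).

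The regions were mostly weak peaks, which is a description of members chosen with a calling threshold and no result. The score in the lists is -10 times log10 of the peak caller's p, so the calling limit of 1e-05 is a score of 50. Median scores were 63.1 for the regions at starts and 60.5 for the farther ones, against 83.5 for shared vehicle regions. Their median width was 785 bp, against 962 bp. A score of at least 100 was reached by 220 members (5.42%) and by 33.5% of the shared regions. Of vehicle peaks scoring 50 to 55, 69.2% were vehicle-only, and of those scoring 150 and over, 2.00% (11 of 551). At equal score the split by position remained: between 70 and 80, 31.9% of the peaks at starts (27.9 to 36.2) and 46.8% of the farther ones (43.4 to 50.3) were vehicle-only, and between 100 and 150 the shares were 7.81% (6.05 to 10.0) and 18.7% (16.2 to 21.5).

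**Figure D1:**
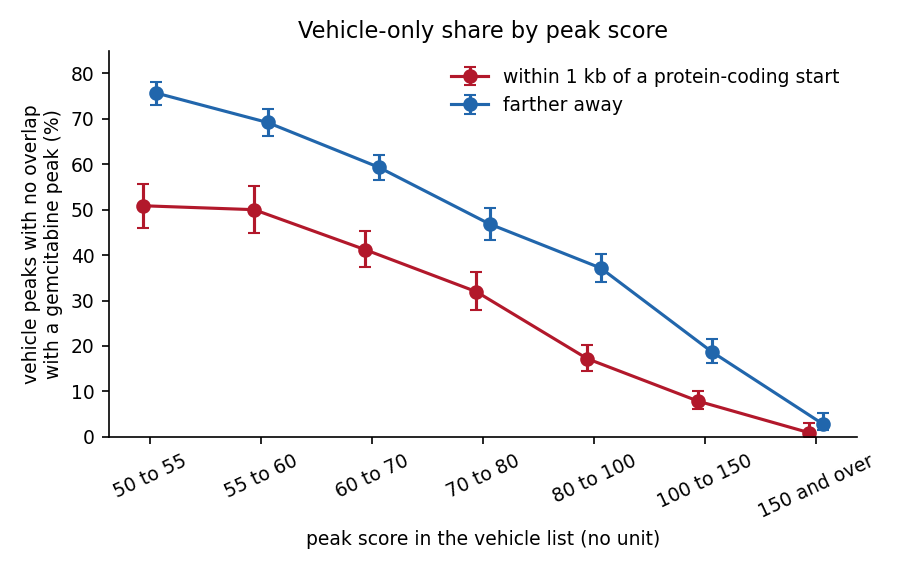
Share of vehicle peaks that were vehicle-only (%, y axis) by peak score (x axis, no unit), for peaks within 1 kb of a protein-coding start (red) and farther away (blue), with 95% Wilson intervals as bars. Both lines drop with the score, the starts from 50.9% to 0.866% and the farther peaks from 75.7% to 2.81%, and the starts sit below the farther peaks in every bin, with intervals that overlap only in the highest one.

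The distance to the nearest gemcitabine peak is a description, since the members were chosen to have no overlap and no other positions were compared. The nearest gemcitabine peak was 44.7 kb away at the median for regions at starts and 60.2 kb for farther regions. Of the 4059 regions, 82 had one within 1 kb. Just inside the rule were regions near BCL7C, 33 bp from a gemcitabine peak, and NDEL1, 78 bp away. Just outside it were vehicle peaks near RNLS, which shared 17 bp with a gemcitabine peak, and TMEM52B, which shared 33 bp. Of the shared vehicle peaks 71 were covered over less than 50% of their length. Exactly repeated words were rare among the members. Words of 31 bases were taken at 3 points of each peak and looked up in the reference. By the median of the 3, they occurred more than once for 2 of the 959 regions at starts. The same held for 38 of the 3100 farther regions (1.23%, 0.894 to 1.68), against 2.10% of the farther shared regions (1.65 to 2.68). Inexact copies were not searched, so these values do not give the share of members in repeated sequence.

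Farther from starts, the vehicle-only regions were poor in G+C. Their median was 39.5% in the 200 bp around the midpoint (quartiles 35 and 46), against 43.5% in shared (38 and 51.5) and 43% in gemcitabine-only regions (37 and 51.5). The medians of vehicle-only and shared regions were the same, 39.5% and 43.5%, when both were limited to scores of 54.6 to 72.9, the middle range of the members. At starts the medians of vehicle-only, shared and gemcitabine-only regions were 62.5%, 62% and 63.5%, and over the whole peak 59.2%, 60.1% and 59.4%. The split of peaks into ranges of G+C, here and below for chromosomes and motifs, was added after the data were seen. By G+C, the vehicle-only share of the farther vehicle peaks went from 66.2% of those under 35% G+C (63.4 to 68.9), through 48.2% of those at 40% to 45% (45.5 to 51.0), to 28.3% of those at 60% and over (24.3 to 32.7). The gemcitabine-only share of the farther gemcitabine peaks showed no such steady fall, at 61.8%, 52.3% and 56.1% in the same ranges. Scores moved with G+C too, since the median score of farther vehicle peaks went from 61.9 in the lowest range to 76.2 in the highest. Among farther vehicle peaks scoring 60 to 80, the vehicle-only share still went from 67.1% (62.0 to 71.9) under 35% G+C to 31.8% (24.9 to 39.6) at 60% and over. At starts the vehicle-only share went from 56.8% of the 44 peaks under 35% G+C (42.2 to 70.3) to 24.5% of those at 50% to 60% (21.8 to 27.3) and 27.0% of those at 60% and over (25.1 to 28.9). The gemcitabine-only share at starts went from 53.8% (40.5 to 66.7) to 33.8% and 38.8% in these ranges. Among vehicle peaks at starts scoring 60 to 80, the shares under 35% and at 60% and over were 45.5% of 11 peaks (21.3 to 72.0) and 35.9% (32.4 to 39.6), with overlapping intervals. With 1 library per condition, a difference in base composition between the libraries and the treatment cannot be told apart.

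**Figure D2:**
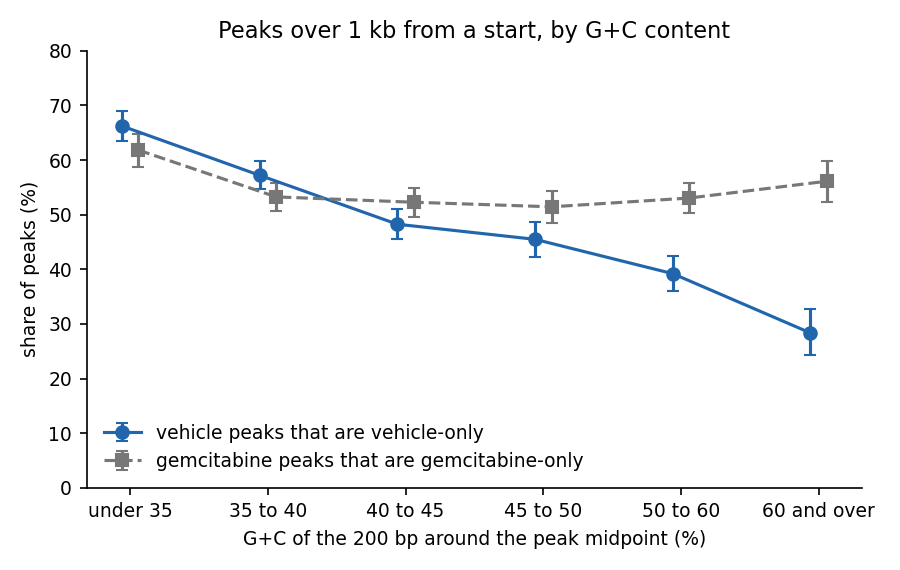
Share of peaks over 1 kb from a start that had no overlap with the other list (%, y axis) by G+C of the central 200 bp (%, x axis), for vehicle peaks (blue circles) and gemcitabine peaks (grey squares), with 95% Wilson intervals. The vehicle-only share drops at every step, from 66.2% to 28.3%, whereas the gemcitabine-only share lies between 51.4% and 61.8%.

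The share also differed between chromosomes, only in part alongside base composition. On chromosome 19, whose farther vehicle peaks had the highest median G+C (58.2%), 28.6% of the farther peaks were vehicle-only (22.0 to 36.2). The share was 63.2% on chromosome 3 (58.3 to 67.9), with a median G+C of 40%, and 62.8% on chromosome 13 (55.4 to 69.7), with 40.5%. Between 35% and 45% G+C the shares were 34.8% on chromosome 19 (18.8 to 55.1, 23 peaks), 64.4% on chromosome 3 (57.3 to 70.9) and 64.9% on chromosome 13 (53.5 to 74.8), so that 19 stayed below 3 within this range. Share and G+C did not go together on every chromosome, since 54.3% of the farther peaks were vehicle-only on chromosome 22 (43.5 to 64.7) at a median G+C of 48.5%, and 44% on the X chromosome (35.6 to 52.8) at 40%. Peak numbers were also uneven by chromosome, with 1.21 vehicle peaks per gemcitabine peak on chromosome 13 and 0.691 on chromosome 18.

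**Figure D3:**
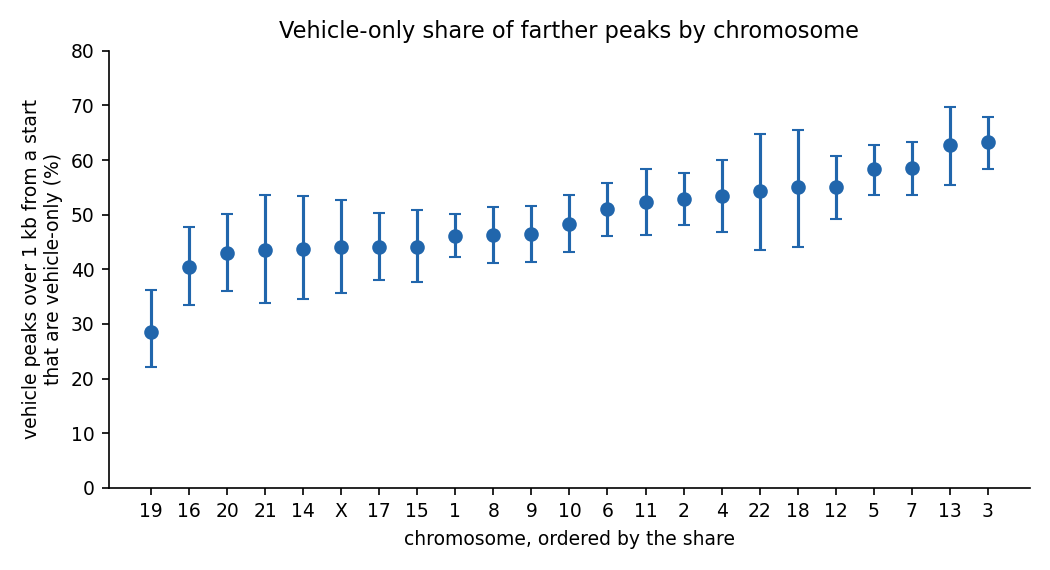
Share of vehicle peaks over 1 kb from a start that were vehicle-only (%, y axis) on each chromosome (x axis, ordered by the share), with 95% Wilson intervals. Chromosome 19 is lowest at 28.6% and chromosomes 13 and 3 are highest at 62.8% and 63.2%.

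Away from starts, the vehicle-only regions held AP-1 and RUNX letters more often than the gemcitabine-only regions, and the shares of vehicle-only and shared regions overlapped in their intervals. Motifs were searched on both strands of the central 200 bp: AP-1 TGANTCA, CRE TGACGTCA, ETS CCGGAAG, SP/KLF GGGCGG, NF-Y CCAAT, NRF1 GCGCNTGCG, TEAD ACATTCC, RUNX TGTGGTT, FOX TGTTTAC, MAF/NRF2 TGACNNNGC, YY1 AAGATGGC, NF-kB by its common 10-letter form, and CTCF as above. A match is a description of the letters and not a site. AP-1 letters were in 23.6% of the 3100 farther vehicle-only windows (22.2 to 25.1), in 24% of the shared (22.5 to 25.5) and in 17.8% of the gemcitabine-only windows (16.6 to 19.0). They were in 5.53% of vehicle-only (4.25 to 7.16), 4.31% of shared (3.58 to 5.18) and 3.92% of gemcitabine-only windows at starts (3.07 to 5.01). These intervals overlapped. Equal windows centred on all protein-coding starts, and not on peaks, held them in 3.73% of cases. An AP-1 match followed by GC also matches MAF/NRF2, and 96 of the 732 farther vehicle-only windows with AP-1 letters held both. RUNX letters, those of the runt-domain factors, were in 6.94% of farther vehicle-only (6.09 to 7.88), 6.48% of shared (5.66 to 7.41) and 5.14% of gemcitabine-only windows (4.47 to 5.91). Within 35% to 45% G+C the AP-1 shares were 24.8% (22.6 to 27.0), 25.2% and 19.5% (17.5 to 21.6), so the gap to the gemcitabine-only regions was also there at like base composition.

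SP/KLF letters, a GC box, were in 4.35% of the farther vehicle-only windows (3.69 to 5.13), less often than in the shared (9.34%, 8.36 to 10.4) and gemcitabine-only windows (8.62%, 7.74 to 9.58). The G+C content moved with this: within 35% to 45% G+C the shares were 1.18%, 1.25% and 1.32%, and their intervals overlapped. CRE letters, bound by CREB and ATF factors, were in 0.581% (0.368 to 0.916) of farther vehicle-only, 1.41% (1.05 to 1.90) of shared and 0.695% of gemcitabine-only windows. Within 35% to 45% G+C the CRE shares were 0.622% (0.328 to 1.18), 1.01% (0.593 to 1.73) and 0.348%, with overlapping intervals. Over all G+C, TEAD letters were in 5.52% (4.77 to 6.38) of farther vehicle-only, 7.30% (6.43 to 8.28) of shared and 5.62% of gemcitabine-only windows. MAF/NRF2 letters were in 7.71% (6.82 to 8.70), 9.70% (8.70 to 10.8) and 8.98% (8.09 to 9.96), and NF-kB letters in 2.42%, 3.12% and 2.34% with overlapping intervals. Over all G+C, the vehicle-only shares for CRE and TEAD lay near the gemcitabine-only ones and below the shared ones. For SP/KLF the vehicle-only share lay below both others, and for MAF/NRF2 the gemcitabine-only share lay between them. CTCF letters were in 1.13%, 1.41% and 1.53%, with intervals that overlapped.

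At starts, the vehicle-only regions lay with gemcitabine-only regions for NF-Y and SP/KLF letters over all G+C, and with shared regions for NRF1 letters. For ETS letters the vehicle-only interval overlapped those of both other classes. The NF-Y letters, the CCAAT box bound by a trimer at many promoters, were in 27.2% of vehicle-only windows (24.5 to 30.1), 36.7% of shared (34.9 to 38.6), 26% of gemcitabine-only (23.9 to 28.2) and 23.1% of all protein-coding starts. The NRF1 letters, an element of promoters of mitochondrial and housekeeping genes, were in 12.7% of vehicle-only (10.8 to 15) and 13.8% of shared windows (12.5 to 15.2), but in 7.78% of gemcitabine-only windows (6.55 to 9.22) and 6.28% of all starts. Within 60% to 70% G+C the NF-Y shares were 27.5% (23.1 to 32.4), 36.0% (33.2 to 38.8) and 28.2%, and the NRF1 shares 19.5% (15.7 to 24), 16.6% (14.5 to 18.9) and 9.34% (7.24 to 12). ETS letters were in 11.1% of vehicle-only (9.22 to 13.2), 13.7% of shared (12.4 to 15.1) and 10.5% of gemcitabine-only windows (9.06 to 12.1). SP/KLF letters were in 46.7% (43.6 to 49.9), 52.4% (50.4 to 54.3) and 47.8% (45.4 to 50.3). Within 60% to 70% G+C the SP/KLF shares were 61.5%, 60.1% and 57.9%, with overlapping intervals. Equal windows at all starts held ETS letters in 9.42% and SP/KLF letters in 43.4% of cases.

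**Figure D4:**
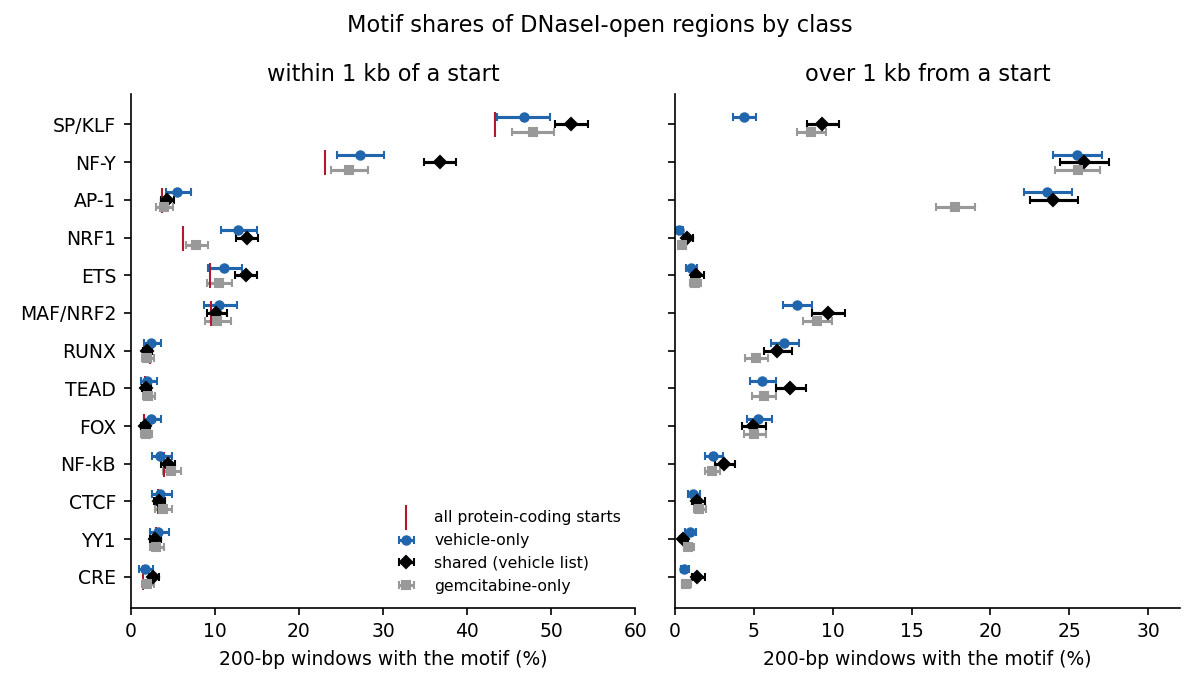
Share of 200-bp windows that hold each motif on either strand (%, x axis) at starts (left) and farther away (right), for vehicle-only (blue circles), shared (black diamonds) and gemcitabine-only regions (grey squares), with 95% Wilson intervals. Red marks give the share over all protein-coding starts. Vehicle-only regions lie with the shared ones for AP-1 away from starts (23.6% and 24%) and for NRF1 at starts (12.7% and 13.8%), and with the gemcitabine-only ones for NF-Y at starts (27.2% and 26%).

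A further element was looked at after the highest-scoring members had been seen. The B box (GGTTCGA, any 2 bases, then CC) is the internal promoter letters of tRNA genes, transcribed by RNA polymerase III. It was present in 29 of the 3100 farther vehicle-only peaks over their whole length (0.935%, 0.652 to 1.34), in 1.38% of the shared (1.02 to 1.86) and in 0.306% of the gemcitabine-only peaks (0.171 to 0.547), although the last were wider (median 896 bp against 777 bp). At starts it was present in 13 of the 959 (1.36%, 0.794 to 2.31), in 2.04% of the shared and in 0.772% of the gemcitabine-only peaks, with overlapping intervals. In the middle range of scores the shares of farther vehicle-only and shared peaks were 0.651% (0.354 to 1.19) and 0.655% (0.301 to 1.42). In the central 200 bp the B box was present in 0.419% of farther vehicle-only (0.245 to 0.716) and 0.329% of farther shared windows (0.179 to 0.604), and at starts in 0.104% of vehicle-only windows and 0.113% of all protein-coding starts. The members with most B boxes were a farther region 1.82 kb from BORCS6 (chr17:8088994-8091683, score 176), with 3, and 5 regions with 2, at ALOXE3 (chr17:8021728-8024852, score 153) and NDUFS7 and farther away nearest to TRIM55, RAB11FIP4 and ZNF184.

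The 10 highest-scoring regions at starts lay at AKT2 (157), ALOXE3 (153), C6orf226 (149), CCNL1 (140), DOLK (139), MED20 (137), ZNF7 (136), NF2 (135), NCAPH2 (131) and SAT2 (129), where the numbers are scores. They include a cyclin of splicing (CCNL1), the dolichol kinase of N-glycan synthesis (DOLK), a Mediator subunit (MED20) and a condensin II subunit (NCAPH2). AKT2 RNA was 197, 147, 162 and 162 FPKM in the vehicle (first 2) and gemcitabine libraries. None of the 10 genes was called changed. The edgeR log2 fold change, gemcitabine over vehicle, was -0.07 ± 0.07 for AKT2 (SE, n = 2 per group, adjusted p = 0.424), -0.35 ± 0.07 for NF2 (adjusted p = 0.00123) and 0.43 ± 0.08 for MED20 (adjusted p = 6.87e-04), the last pair below the 1.5-fold limit of the call. ALOXE3 had 3 and 3 vehicle fragments and 5 and 7 gemcitabine fragments, near the floor.

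The farther regions ranked 2 to 10 by score are described here. Scores were 190 for the region near ALG10 and 188 for that in the KCNJ15 intron (chr21:39649111-39650321), 4.77 kb from a start of that inward-rectifier potassium channel gene. By exact words the region near ALG10 was not repeated in the reference, but inexact copies of it were not searched. The other 7 were the region near BORCS6 (176), one 179 kb from BET1 (164), one 260 kb from TRIB2 (160), one 163 kb from HS3ST3B1 (156), one 376 kb from SEMA3C (155), one in an intron of VMP1 that lies 2.99 kb from the microRNA gene MIR21 (chr17:57914548-57915640, 152), and one 183 kb from KIT (147), the receptor of stem cell factor. The nearest gemcitabine peak was 7.03 kb from the VMP1 region and 51.2 kb from the KIT region. In KIT RNA, the libraries held 242 and 246 fragments with vehicle and 156 and 157 with gemcitabine. That difference, -0.53 ± 0.12 on the log2 scale (edgeR adjusted p = 0.00330), passed the p limit and not the 1.5-fold limit. Among the nearest genes of these 9 regions only KCNJ15 was called, and its values are given with the called genes. SEMA3C RNA had 1584 and 1625 fragments with vehicle and 1861 and 2026 with gemcitabine, a log2 difference of 0.39 ± 0.07 (edgeR adjusted p = 5.70e-04) that stayed under the fold limit.

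Genes with a vehicle-only region at a start were mostly well expressed. The annotation gave 1108 such genes, 1079 of them were in the RNA table and 1063 passed the filter of 10 fragments over the 4 libraries. Their median level in the vehicle libraries was 25.6 FPKM, against 27.2 FPKM for genes with a shared region, 19.2 FPKM for genes with a gemcitabine-only region, 0.556 FPKM for genes with no peak and 3.58 FPKM for all genes.

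Their RNA did not move one way under gemcitabine. In bulk RNA, a change in the number of cells of a kind and a change per cell cannot be told apart. Of the 1063 genes, 48 were called higher (4.52%) and 49 lower (4.61%), against 5.69% higher and 4.42% lower of all 14854 tested genes. Together that was 9.13% called, against a background of 10.1%, so the genes at vehicle-only starts were called about as often as all genes. A call needed an edgeR adjusted p under 0.05, a fold change over 1.5 and a difference of at least 1 in mean FPKM. Their median log2 fold change was -0.03, against 0.01 over all tested genes. With library totals as the scale in place of TMM factors, which edgeR takes from the bulk of the genes, the median of all genes shifted to 0.12 and that of the members to 0.08, and the calls became 72 higher and 31 lower (69.9% higher, against 49.5% with TMM), as over all genes (1164 higher and 418 lower, 73.6% against 56.3%). Relative to all genes the members' median was -0.04 under both scales. Genes with a shared region showed 4.61% higher and 5.37% lower, and those with a gemcitabine-only region 4.91% and 4.21%. Of the 64 tested genes whose region scored at least 100, 1 was higher and 2 were lower.

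Among called genes averaging at least 1 CPM, 47 were higher and 49 lower. The highest fold was that of PLAU, the urokinase plasminogen activator. The PLAU region (chr10:75668597-75669520, score 53.1) held the start and AP-1 letters in its central 200 bp. A gemcitabine peak lay 1.41 kb from this region. PLAU had 5 and 4 fragments with vehicle and 21 and 31 with gemcitabine, a low count throughout. The groups did not overlap, and the log2 fold change was 2.61 ± 0.49 (edgeR adjusted p = 7.31e-04). IFIT2, an interferon-induced gene, had 18 and 21 fragments with vehicle and 124 and 88 with gemcitabine, 2.55 ± 0.26 on the log2 scale (edgeR adjusted p = 4.75e-06).

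ETV5, an ETS-family transcription factor, had the strongest peak of the called genes at starts (chr3:185826616-185827606, score 116). Its RNA was 123 and 131 fragments with vehicle and 285 and 344 with gemcitabine, 1.42 ± 0.13 on the log2 scale (edgeR adjusted p = 2.13e-06), although the nearest gemcitabine peak was 170 kb away. HHAT, the hedgehog acyltransferase, rose from 67 and 69 to 235 and 208 fragments, 1.82 ± 0.15 on the log2 scale. The vehicle and gemcitabine libraries did not overlap for PLAU, IFIT2, ETV5 or HHAT.

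KCNJ15 had one vehicle-only region within 1 kb of a start (chr21:39668981-39670207, score 62.0) beside the intronic one of score 188. Its RNA was 16.3 and 14 fragments with vehicle and 58.2 and 60.1 with gemcitabine, a log2 fold change of 2.08 ± 0.30 (edgeR adjusted p = 7.96e-05). In FPKM, where transcript length enters, its groups overlapped, at 1.78 and 0.499 with vehicle and 1.76 and 3.18 with gemcitabine, and limma on log2(FPKM + 1) gave 0.73 (adjusted p = 0.303). Without vehicle replicate 2 or without gemcitabine replicate 2 it was 1.96 and 2.04 and no longer met the FPKM limit of the call. CXCL2, a neutrophil chemokine, had 23 and 22 fragments with vehicle and 61 and 49 with gemcitabine, 1.40 ± 0.28 (edgeR adjusted p = 0.00129).

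Further higher genes among the 20 with the largest changes were ATOSB (1.70), ZSWIM3 (1.63), EFEMP2 (1.43, fibulin-4 of elastic fibres), FIBCD1 (1.35), DOCK2 (1.29, an activator of Rac), GCNT1 (1.28, a glycosyltransferase of O-glycans), APLP1 (1.27, a relative of the amyloid precursor protein), CHRDL2 (1.16) and FOSB (1.16), with log2 fold changes in parentheses. ATOSB had another peak at a start that was not vehicle-only. The calls of DOCK2 (1.06, edgeR adjusted p = 0.0641) and CHRDL2 (1.02, edgeR adjusted p = 0.0680) were lost without vehicle replicate 1. Limma on FPKM, with a pseudocount of 1 or 0.1, kept the direction of all 20 genes but did not call PLAU, ETV5, CXCL2, FIBCD1, DOCK2, GCNT1, FOSB, ZNF239, RRP12 and TGIF2-RAB5IF, nor KCNJ15, under either.

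The lower genes among these 20 were fewer. NDUFAF4, an assembly factor of respiratory complex I, had 235 and 278 fragments with vehicle and 87 and 70 with gemcitabine, -1.59 ± 0.15 on the log2 scale (edgeR adjusted p = 2.17e-06). ZNF239, a zinc finger gene, changed by -1.23, and RRP12 is given with the ribosome genes. C7orf25 changed by -1.36 (edgeR adjusted p = 0.00994), and its call was lost without vehicle replicate 1 (-1.53, adjusted p = 0.0614) or vehicle replicate 2 (-1.14, adjusted p = 0.153). TGIF2-RAB5IF, a readthrough gene whose fragments cannot be told apart from those of its component genes, had 16.6 and 94.7 fragments with vehicle and 15.3 and 7.77 with gemcitabine. In CPM its groups overlapped, though the unscaled fragments did not. Without vehicle replicate 2 its change of -2.15 became -0.47.

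**Figure D5:**
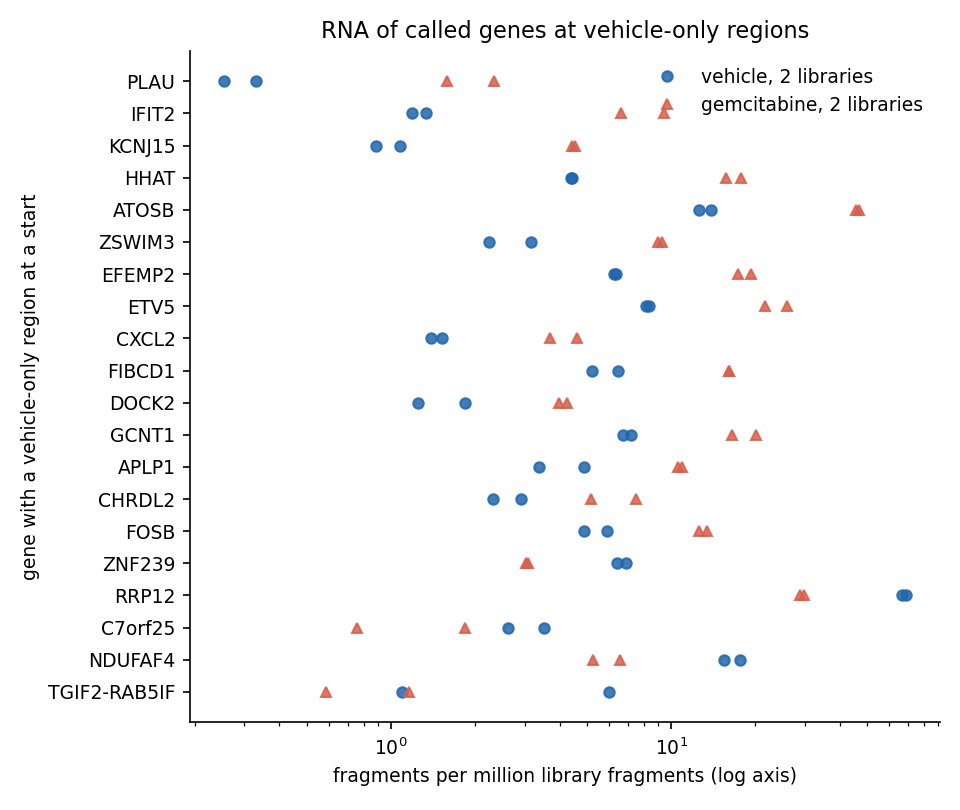
RNA of the 20 genes with the largest changes among called genes with a vehicle-only region at a start, in CPM (x axis, log axis), 1 point per library, for vehicle (blue circles) and gemcitabine (red triangles). The conditions are apart for 19 of the 20 genes, 15 of which are higher with gemcitabine, and overlap for TGIF2-RAB5IF.

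The gene lists were chosen for this tissue and drug with earlier results of these data known, so the calls counted in them are a description. Few of their genes had a vehicle-only region at a start. Ribosome biogenesis had 4 of its 20 genes: RRP12 and UTP20, which process the small subunit, RRS1, needed for large subunit assembly, and POLR1B, a subunit of RNA polymerase I. All 4 were called lower, as were 16 of the 20 in the list, which had a median log2 fold change of -0.91, against 4.42% called lower of all tested genes and a median of 0.01. RRP12 had 1012 and 1084 fragments with vehicle and 380 and 396 with gemcitabine (-1.32 ± 0.08, edgeR adjusted p = 5.83e-08), and its region scored 54.8 (chr10:99160766-99161328). UTP20 had 1703 and 1855 against 692 and 787 fragments (-1.15 ± 0.08, edgeR adjusted p = 1.53e-07), with a region of score 74.0. RRS1 and POLR1B changed by -0.98 and -0.90. The other genes of the list had a shared region (7), a gemcitabine-only region (5) or no peak (4), so lower RNA in this list was not limited to genes with a vehicle-only region.

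DNA replication had 3 of 20 genes with such a region, CDC6 and GINS1, which load and form the replicative helicase, and LIG1, the ligase of the lagging strand. None of the 3 was called, with log2 fold changes of 0.22 (edgeR adjusted p = 0.0161), -0.07 and 0.16, although their regions scored 87.5, 68.4 and 81.5. Over that list 0 genes were called higher and 5 lower, to be read against the 5.69% higher and 4.42% lower of all tested genes, as are the next lists. The NF-kB and interleukin list had 1 of 16, CXCL2, and 13 of the 16 were called higher, with CXCL2 the only one of them that had a vehicle-only region at a start. The AP-1 and immediate early list had 1 of 18, FOSB, whose protein is one of the partners of JUN. FOSB had 74 and 93 fragments with vehicle and 166 and 179 with gemcitabine (1.16 ± 0.16, edgeR adjusted p = 5.78e-05), and the list had 2 higher and 5 lower genes of 17 tested. None of the 12 p53 targets and none of the 9 deoxycytidine and gemcitabine genes, such as DCK and RRM2B, had a vehicle-only region at a start. Of those, 5 p53 targets were higher and 0 lower, and in the other list 1 was higher and 2 lower.

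Genes nearest to the farther regions were called higher more often than lower, and so were the genes nearest to other farther peaks. Within 50 kb, 1246 tested genes were nearest to a farther vehicle-only region, of which 108 were higher (8.67%) and 47 lower (3.77%), against 5.69% and 4.42% of all tested genes. For farther shared regions the shares were 10.1% and 3.99%, and for farther gemcitabine-only regions 7.20% and 4.39%. A gene can be nearest to regions of several classes, so these groups share genes. For the 759 tested genes near farther vehicle-only regions alone the counts were 63 higher (8.30%) and 28 lower (3.69%).

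The largest changes of this kind were rises. CAVIN2, a coat protein of caveolae, had 10 and 20 fragments with vehicle and 101 and 119 with gemcitabine (2.98 ± 0.29, edgeR adjusted p = 2.41e-06), with the better of its 2 vehicle-only regions 31.1 kb from a start (chr2:192742934-192743952, score 88.5). SUSD2 had 10 and 11 against 74 and 67 fragments (2.85 ± 0.30), with a region 7.73 kb away. TGM2, the tissue transglutaminase, was the most abundant of them, with 1292 and 1341 fragments with vehicle and 4310 and 4962 with gemcitabine (1.93 ± 0.08, edgeR adjusted p = 3.59e-09). One of its 2 vehicle-only regions lay 1.25 kb from a start (chr20:36796234-36797451, score 85.9), and the nearest gemcitabine peak was 11.8 kb from that region. In each of these genes the groups did not overlap.

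PLAU and KCNJ15 had both kinds of region, the farther ones 13.0 kb and 4.77 kb from a start. The others among the 10 were LIPH (2.31, a lipase), TMEM52B (2.09), P2RY6 (2.03, a receptor of extracellular nucleotides), CNN1 (1.97, the calponin of smooth muscle) and TVP23C-CDRT4 (1.95), with log2 fold changes in parentheses. TVP23C-CDRT4 is a readthrough gene, and its fragments are uncertain for the same reason as above. TMEM52B and P2RY6 also had a gemcitabine-only region at a start, so regions of both classes stood near these genes.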

How the data were processed

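PANC1 cells were profiled by RNA-seq (2 libraries per condition) and DNaseI-seq (1 per condition). Per the labels and the methods, the authors aligned reads to hg19, for RNA with TopHat2 2.0.8, and assigned them to Gencode V15 protein-coding genes with Cuffdiff 2.0.2. The deposited RNA values are estimated counts (fragments per gene, not always whole) and FPKM. The deposited peak lists hold, per condition, MACS peaks at p 1e-05, with a score (-10 log10 p). The MACS version is not given in the sources used here.

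The vehicle list held 9606 peaks, 1 of them mitochondrial and left out, and the gemcitabine list 10695. Overlap was 0 bp for members. Starts were those of Gencode release 44 lifted to GRCh37, not the release used for the counts, and 20300 peaks lay inside the reference chromosomes. Intervals are 95% Wilson. Rounded estimated counts of genes with at least 10 fragments were tested with edgeR 4.0.16 (quasi-likelihood, TMM, Benjamini-Hochberg over all 14854 genes, R 4.3.3). Calls needed adjusted p under 0.05, a fold over 1.5, at least 0.1 FPKM in 1 condition and a difference of 1 FPKM. The common biological coefficient of variation was 0.0522. DESeq2 1.42.0 and limma 3.58.1 were alternatives. The test was checked on simulated counts. Replicates within a condition differed beyond counting noise, with mean chi-square values per gene of 2.17 (vehicle) and 5.16 (gemcitabine). No label told whether the libraries came from separate cultures beyond the name of biological replicate, so p-values measure the spread between these libraries. Intervals and floors cover counting error only.

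The named regions and genes were the 10 highest scores at starts and farther away, the 20 called genes with the largest change at starts and 10 near farther regions (mean of at least 1 CPM), and list genes with a region at a start. No sequence from chromosome 8 is printed. The farther region ranked 1 by score is not reported here. The members and lists were chosen with earlier results of these data known.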

Additional observations from a re-analysis of the deposited data

How the results depend on the processing

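No paired analysis was possible because nothing links the library index in the RNA table with the labels' replicate numbers. With both lists limited to scores of at least 100, vehicle-only regions went from 4059 of 9605 vehicle peaks to 881 of 2078. These 881 include peaks that overlap a gemcitabine peak scoring under 100. With the vehicle list alone limited, 220 remained. The share at starts went from 23.6% to 41.2% and 25.9%. For the limit on both lists, the share of shared peaks at starts was not computed. By distance the share of vehicle-only regions at starts was 22.3% at 500 bp and 29.9% at 5 kb. The 3 other overlap rules and the midpoint distance, which was added after seeing the data, left number and share close to the main values. Motif shares moved with the window, by construction: at 100 and 400 bp they were 12.5% and 37.2% for AP-1 and 2.45% and 7.03% for SP/KLF farther away, and 16.7% and 43.1% for NF-Y, 7.30% and 22.4% for NRF1, 29.7% and 65.5% for SP/KLF and 5.21% and 20.5% for ETS at starts. Vehicle-only minus shared, in percentage points, changed from -0.36 to -0.077 for AP-1 farther away and from -2.60 to -4.08 for ETS at starts in the same score range. In the same G+C range, a comparison added after seeing the data, it changed from -4.98 to -0.071 for SP/KLF farther away and reversed at starts from -1.05 to 2.93 for NRF1 and from -5.66 to 1.35 for SP/KLF.

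Genes called lower went from 656 to 418 with library totals, and lower genes at vehicle-only starts from 49 to 31. With limma on log2(FPKM + 1) 300 genes were higher and 104 lower (members 18 and 12), with limma on log2(FPKM + 0.1) 428 and 178 (members 24 and 16), and by adjusted p alone 2751 and 2975 (members 188 and 247). The members' median of -0.029 was 0.080 with library totals, 0.078 and 0.088 with limma (pseudocounts 1 and 0.1), -0.022 without a filter, -0.016 at 5 kb, and -0.034 to -0.020 without each library in turn. Leaving out 1 library gave 41 to 57 higher and 43 to 53 lower members, in fits where the lone library was assumed to vary like the others. DESeq2 called 44 higher and 44 lower members. Of the single genes, 4 that were not called changed direction: GINS1 (0.041) and AKT2 (0.039) with library totals, and C6orf226 (-0.12 to 0.60) and CCNL1 (-0.12 to 0.20) between fits without 1 library. With pseudocounts 1 and 0.1, limma on FPKM did not call PLAU (1.25 and 1.90), KCNJ15 (0.73 and 1.22), ETV5 (1.69 and 1.86), CXCL2 (0.88 and 1.17), RRP12 (-1.10 and -1.18), FOSB (0.77 and 1.00), GCNT1 (1.13 and 1.39), FIBCD1 (0.68 and 0.76), DOCK2 (1.05 and 1.84), ZNF239 (-0.72 and -1.02) or TGIF2-RAB5IF (-1.28 and -2.16), with adjusted p from 0.0509 to 0.519. Under 1 of the pseudocounts it did not call APLP1, C7orf25, UTP20 or POLR1B. The cause was not tested. With 1 DNaseI library per condition and unknown read depth, no region has a measured replicate error.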
